A study of Mus musculus with 5 samples.

Results

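Integrins, selectins and the immunoglobulin adhesion molecules that they bind were followed in mouse common myeloid progenitors transformed with the leukaemia gene MN1, with and without the histone methyltransferase gene Mll1. The group was fixed by name: 38 genes of the 31626 in each file, made up of 27 integrin chains, 2 selectins, 5 immunoglobulin adhesion molecules and 4 junction molecules. Of these, 21 reached at least 1 FPKM, fragments scaled to transcript length and library size, in at least 2 of 5 libraries and entered the test, and 17 did not.

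All 5 libraries came from C57Bl/6 cells carrying MLL1 flox/flox alleles and the retroviral vector MSCV-MN1-IRES-GFP, grown in M3234 medium with FBS, IL3, IL6 and SCF. The 3 control libraries, MLL1-Control, came from cells transduced with a control. The 2 knockout libraries, MLL1-Cre, came from cells transduced with Cre and labelled MLL1 -/-. Cells of both groups were sorted on day 7. A group given Cre with intact Mll1 was not analysed here, so the effects of Cre and of Mll1 loss cannot be told apart. The labels do not tell whether libraries of a group were separate mice or cultures, so p-values measure the spread between these libraries, which may be technical.

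Integrins are receptors of one alpha and one beta chain that span the membrane and tie the actin skeleton to matrix or to neighbouring cells. Itgb1 pairs with many alpha chains, Itgb2 with the leukocyte chains Itgal (LFA-1) and Itgam (Mac-1), Itgb3 with Itga2b or Itgav, Itgb5 with Itgav and Itgb7 with Itga4 or Itgae. In bone marrow, Itga4 with Itgb1 binds Vcam1, and the Itgb2 integrins bind the Icam proteins during leukocyte adhesion and migration. Selectins are lectins that let leukocytes roll on the vessel wall.

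Mll1 itself stood at 9.67, 7.28 and 7.19 FPKM in the controls, against 6.22 and 5.32 FPKM in the knockouts. Both knockouts were lower than every control, and p was 0.1 in a two-sided exact permutation test, which cannot go lower with 10 arrangements. In limma, the test used for the genes below, Mll1 was not called (log2 change -0.41, adjusted p = 0.158). Which exons are floxed is not given in the sources used here, so gene-level FPKM is only a partial check of the labels. The worth of 1 read, estimated from 5343 low genes, ranged from 0.979 to 1.017 times its value in control replicate 1, so the libraries were of like depth, but absolute depth is unknown. Control replicate 1 stood apart: 4.87% and 4.97% of the genes tested were over 2-fold from control replicates 2 and 3, which differed from each other in 2.19%. Progenitor markers were present (Cd34 at 587 to 685 FPKM in controls, Kit at 57.1 to 112 FPKM in all libraries). Of other lineages, 5 of 14 lymphoid, 1 of 10 endothelial and 2 of 10 stromal markers were listed at 0 in all 5 libraries, while Nkg7, Egfl7, Flt1 and Thy1 of these lists exceeded 20 FPKM in controls. With 3.82% of all genes tested rising and 5.97% falling, 3 of 8 mast cell and basophil genes tested rose (summed level 874 to 1085 FPKM in controls, 1522 and 1544 FPKM in knockouts), as did 4 of 9 erythroid genes (160 to 162 FPKM, then 192 and 205 FPKM). The largest parts of these sums were Cpa3 and Tfrc, which were not called (limma adjusted p = 0.058 and 0.240). Kit, also of the mast cell list, was not called and was lower in both knockouts than in every control. Falls were called for 5 of 9 progenitor and 2 of 6 monocyte genes tested. In the dendritic, lymphoid, endothelial and stromal lists 1 gene each fell, of 2, 2, 3 and 4 tested. A rise was called for 1 stromal gene and for 1 of 9 neutrophil genes. These lists are given beside the adhesion genes. Epithelial genes all stayed below 1 FPKM. What part these cells have in the adhesion genes was not tested.

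For 4 of the genes whose levels differed between libraries, the 250 bases before the annotated start are shown, since Itgam and Itgb2l shared one pattern across the 5 libraries and Itgb5 and Itgb7 another. The RefSeq promoter table matched 13 of the 21 genes tested. No promoter was matched for Vcam1, which had the pattern of Itgam, or for the called genes Itgb2, Itgal, Itgb3 and Itga6. The sequences run 5′ to 3′ on the gene's strand in GRCm38.p6, at chr7:128062390-128062639 (plus strand) for Itgam, chr16:96443615-96443864 (minus) for Itgb2l, chr16:33829415-33829664 (plus) for Itgb5 and chr15:102231936-102232185 (minus) for Itgb7. Capitals mark matches to GAGGAA, an ETS core with a flank of the kind that PU.1 binds, on either strand (TTCCTC on the other).
Itgam: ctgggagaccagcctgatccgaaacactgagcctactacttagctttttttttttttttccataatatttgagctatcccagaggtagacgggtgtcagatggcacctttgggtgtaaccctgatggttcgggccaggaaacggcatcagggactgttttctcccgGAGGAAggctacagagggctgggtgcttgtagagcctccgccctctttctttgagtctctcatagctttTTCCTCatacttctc
Itgb2l: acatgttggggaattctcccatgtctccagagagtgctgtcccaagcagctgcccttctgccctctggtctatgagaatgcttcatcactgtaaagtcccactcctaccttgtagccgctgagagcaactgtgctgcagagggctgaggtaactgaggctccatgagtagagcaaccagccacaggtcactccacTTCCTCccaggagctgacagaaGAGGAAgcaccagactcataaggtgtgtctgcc
Itgb5: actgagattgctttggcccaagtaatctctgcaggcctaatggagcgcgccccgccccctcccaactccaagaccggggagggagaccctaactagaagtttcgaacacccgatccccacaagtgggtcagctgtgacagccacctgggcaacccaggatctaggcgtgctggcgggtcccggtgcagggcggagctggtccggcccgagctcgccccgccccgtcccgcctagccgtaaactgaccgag
Itgb7: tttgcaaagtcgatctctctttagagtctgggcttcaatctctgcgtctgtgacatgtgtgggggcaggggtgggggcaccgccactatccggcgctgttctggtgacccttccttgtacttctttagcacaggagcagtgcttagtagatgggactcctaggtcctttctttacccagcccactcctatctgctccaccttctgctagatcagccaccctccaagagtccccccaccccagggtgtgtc

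The windows of Itgam and Itgb2l each held GAGGAA 2 times, once on each strand, at positions -84 and -15 from the gene start in Itgam and -55 and -33 in Itgb2l. Those of Itgb5 and Itgb7 held no match to it, nor to the RUNX core TGTGGT or the GATA core AGATAA, which were also searched on both strands and had no match in the Itgam and Itgb2l windows either. Among all 32851 promoters of that length, 23.25% held GAGGAA, 14.05% TGTGGT and 9.99% AGATAA. The first of these motifs was found in 7 of the 13 tested genes with a promoter, also in Itga2b and Itgav (2 matches each) and in Itga5, Itgb1 and F11r (1 each), none of which had the library pattern of Itgam. The windows of Icam1, Icam4, Itga4 and Itga9, which were not called, held no GAGGAA, like those of Itgb5 and Itgb7. Whether the motif goes with a library pattern was not tested. A match is a string of letters and no evidence of binding.

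Knockout libraries had 1 of the 21 genes called higher and 5 called lower (limma, adjusted p under 0.05), and 15 were not called. Itgb2 rose, and Itga6, Itgal, Itgb3, Itgb5 and Itgb7 fell. All 6 are integrin chains, and the 7 immunoglobulin and junction genes tested all had adjusted p-values of 0.186 or more. Of all 11780 genes tested, 3.82% rose and 5.97% fell (450 and 703, or 597 and 621 after median-ratio scaling). Both knockouts lay above every control in 4 of the 21 and below every control in 8, against 22.9% and 29.4% of all genes tested. The median log2 change over the 21 was -0.066, beside -0.028 over all genes tested. Each log2 change is the knockout mean minus the control mean of log2(FPKM + 1), so changes of low genes come out too small. In these bulk libraries, fewer cells that express a gene and less RNA per cell cannot be told apart.

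These calls rest on few libraries. Without control replicate 1, 4 of the 21 rose and 6 fell, among them all 6 called with every library, against 11.9% and 18.0% of all genes tested. Without control replicate 2, and likewise without control replicate 3, Itga6 and Itgb3 fell and none rose. Of all genes tested, 0.382% rose and 0.560% fell without control replicate 2, and 0.594% and 1.14% without control replicate 3. With 1 knockout library left, the controls alone give the spread and the lone library is assumed to vary like them. Limma then called 3 genes higher and 4 lower of all 11780 without knockout replicate 1, and 0 without knockout replicate 2, so calls lost in these fits say nothing particular about the adhesion genes. None of the 21 was called in either (7 and 6 at an unadjusted p under 0.05).

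**Figure D1:**
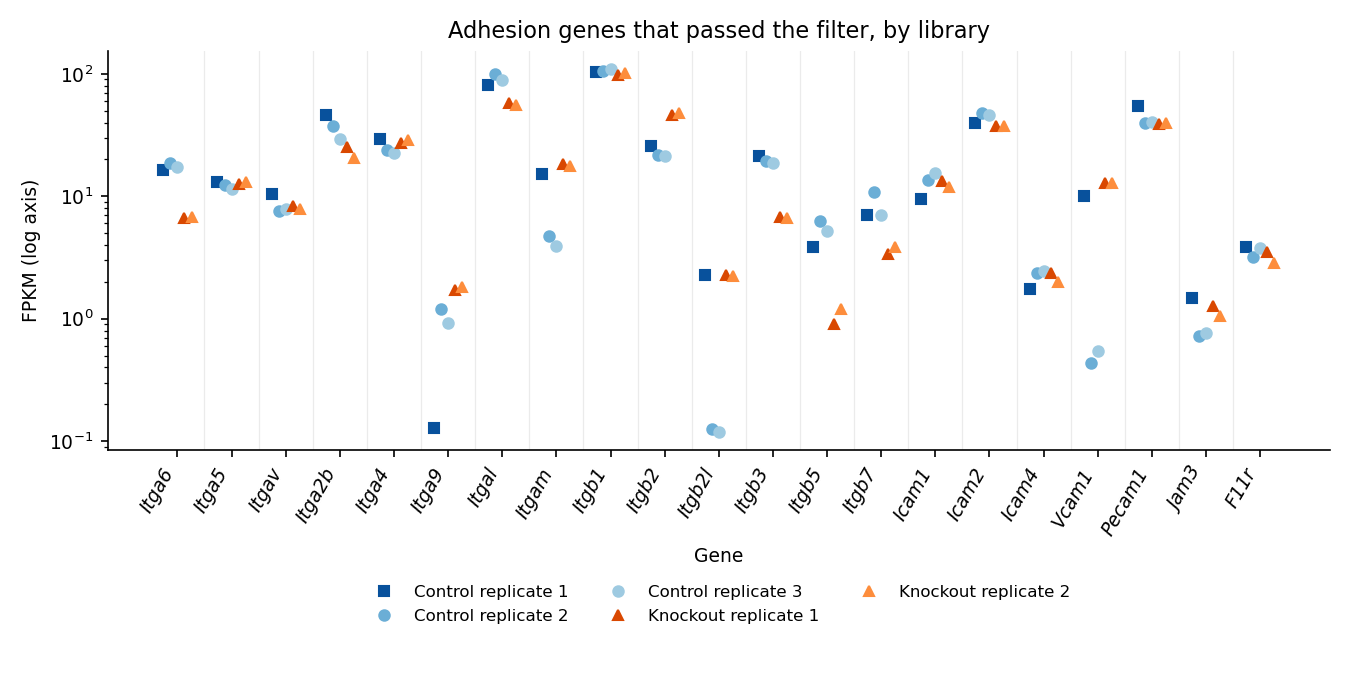
FPKM (log axis) of the 21 adhesion genes that passed the filter, with 1 point per library: squares and circles are the 3 controls, triangles the 2 knockouts. The knockouts lie apart from the controls for Itga6, Itgal, Itgb2, Itgb3, Itgb5 and Itgb7, and control replicate 1 lies beside the knockouts for Itgam, Itgb2l and Vcam1.

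The beta chains showed a shift of make-up within a steady total. Their summed level was 164, 163 and 162 FPKM in the controls, against 158 and 164 FPKM in the knockouts. Itgb1, the partner of many alpha chains, made up 62.2% to 67.7% of that sum in every library. Itgb2 took 15.7%, 13.4% and 13.1% of it in the controls and 29.0% and 29.2% in the knockouts, while Itgb3 took 12.9%, 11.9% and 11.5% in the controls and 4.30% and 4.07% in the knockouts. In the controls Itgb3 thus stood close below Itgb2, at 0.821, 0.884 and 0.878 of its FPKM, and in the knockouts at 0.148 and 0.139 of it. The summed level of the alpha chains was not steady, at 214, 208 and 184 FPKM in the controls, against 159 and 154 FPKM in the knockouts. These sums and shares compare levels per length within each library and were not tested.

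**Figure D2:**
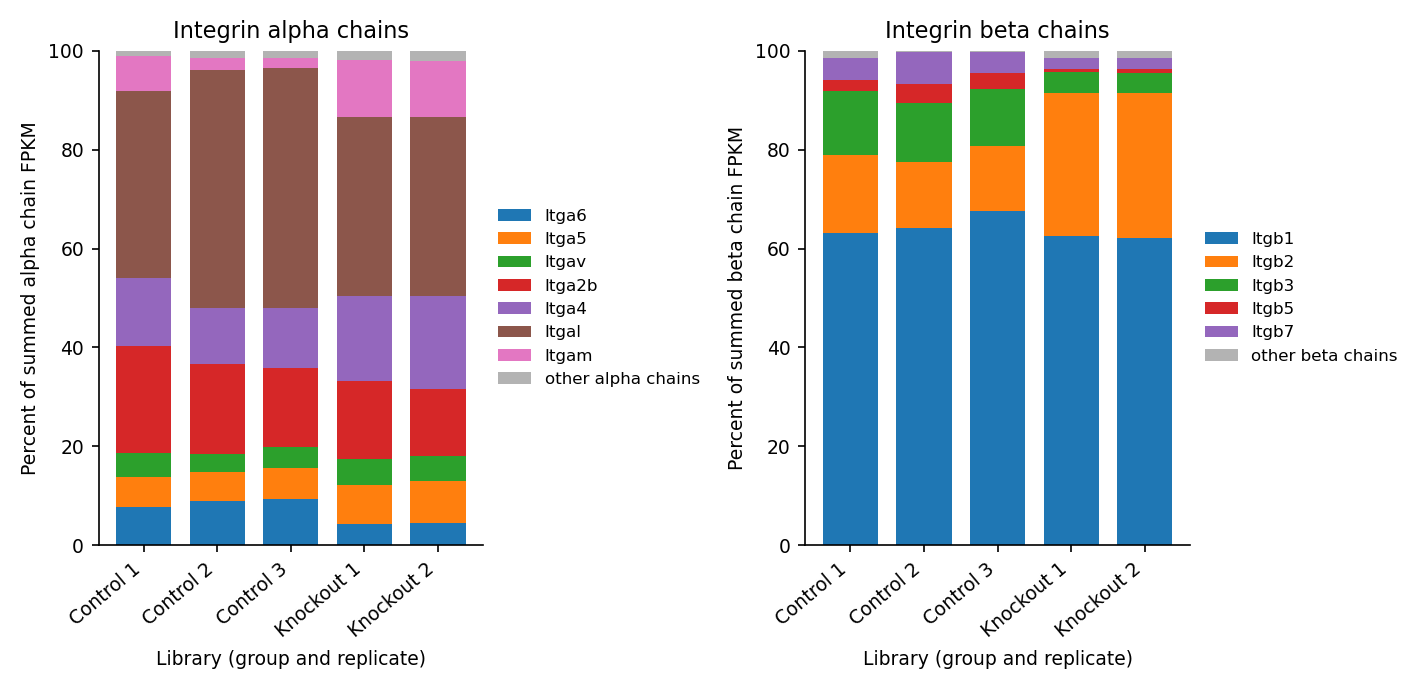
Percent of the summed FPKM of the 18 integrin alpha chains (left) and the 9 beta chains (right) in each library, with control replicates 1 to 3 first and knockout replicates 1 and 2 last. Itgb2 fills 13.1% to 15.7% of the beta chain sum in controls and 29.0% and 29.2% in knockouts. Itgal fills 37.9% to 48.5% of the alpha chain sum in controls and 36.2% and 36.1% in knockouts.

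Itgb2, the CD18 chain shared by LFA-1 and Mac-1, stood at 25.8, 21.9 and 21.3 FPKM in the controls, against 45.7 and 47.9 FPKM in the knockouts. The groups did not overlap, and the means were 23.0 ± 2.45 FPKM (SD, n = 3) and 46.8 ± 1.52 FPKM (SD, n = 2), 2.04-fold higher in the knockouts. Its log2 change was 0.9997 with an SE of 0.11 (limma adjusted p = 0.0148). The adjusted p ran from 0.0036 without control replicate 1 to 0.181 without knockout replicate 2, and was 0.0646 and 0.0540 without control replicates 2 and 3 and 0.164 without knockout replicate 1.

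The alpha chains that pair with Itgb2 did not follow it together. Itgal, the CD11a chain of LFA-1 and the alpha chain with the highest level in each library, stood at 81.2, 100.4 and 89.1 FPKM in the controls, against 57.5 and 55.6 FPKM in the knockouts. Every control was above both knockouts, and Itgal fell 1.60-fold, from 90.2 ± 9.65 FPKM (SD, n = 3) to 56.5 ± 1.34 FPKM (SD, n = 2). The log2 change was -0.66 with an SE of 0.11 (limma adjusted p = 0.0308). Leaving out control replicate 1 gave an adjusted p of 0.0101, and leaving out any other library gave 0.0763 to 0.268.

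Itgam, the CD11b chain of Mac-1 on granulocytes and macrophages, stood at 15.2, 4.78 and 3.93 FPKM in the controls, against 18.4 and 17.6 FPKM in the knockouts. Both knockouts were above every control, but control replicate 1 lay far nearer to them than to the other controls, and Itgam was not called (limma adjusted p = 0.185). Without that library its log2 change was 1.83 and its adjusted p 0.00401. A gene on the same strand in the GENCODE M21 annotation shares 68.67% of the exon bases of Itgam. That gene has no value of its own in these libraries, so part of the Itgam level could be reads of that gene. The ratio of Itgam to Itgal was 0.187, 0.0476 and 0.0441 in the controls and 0.321 and 0.318 in the knockouts. The remaining leukocyte alpha chains were below the filter: Itgax, the CD11c chain of dendritic cells, Itgad and Itgae, the partner of Itgb7 on mucosal lymphocytes, reached at most 0.314, 0.159 and 0.634 FPKM in any library. Among 9 dendritic cell genes, Itgax included, 7 stayed below 1 FPKM in every library, with Cd209a and Siglech at 0. Of the 2 that passed the filter, Flt3 fell (83.5 to 96.3 FPKM in controls, 9.51 and 7.69 FPKM in knockouts). The other, Cd74, was not called (limma adjusted p = 0.601).

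Itgb2l, a beta chain gene of the neutrophil lineage that resembles Itgb2, and Vcam1, the ligand of Itga4 with Itgb1 on stromal cells and macrophages, had the pattern of Itgam. Itgb2l stood at 2.27, 0.125 and 0.118 FPKM in the controls, against 2.27 and 2.23 FPKM in the knockouts, which puts control replicate 1 at the knockout level. Vcam1 stood at 10.05, 0.432 and 0.542 FPKM in the controls, against 12.9 and 12.9 FPKM in the knockouts. Vcam1 was thus alike in control replicate 1 and both knockouts and far lower in control replicates 2 and 3. Neither was called (limma adjusted p = 0.262 for Itgb2l and 0.194 for Vcam1). Without control replicate 1 both passed, Itgb2l with a log2 change of 1.54 (adjusted p = 0.00553) and Vcam1 with 3.22 (adjusted p = 0.00291).

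Some granulocyte and monocyte markers had the library pattern of Itgam, Itgb2l and Vcam1 and others did not, and their part in these results was not tested. The 12 neutrophil genes matched summed to 6419, 817 and 1077 FPKM in the controls, against 22431 and 20699 FPKM in the knockouts, mostly from S100a8 and S100a9, and 9 of the 12 passed the filter, of which Lcn2 rose. Camp, a secondary granule gene, was at 42.9, 1.35 and 2.01 FPKM in the controls, against 33.3 and 32.4 FPKM in the knockouts, again high in control replicate 1. Mmp8 (38.7, 65.0 and 64.3 FPKM, against 52.5 and 54.4 FPKM) and Csf3r (24.1 to 33.5 FPKM) lacked that pattern. None of the 12 was at 0 in every library, though Mmp9 and Fpr1 stayed below 1 FPKM. The 10 monocyte and macrophage genes matched summed to 382, 127 and 107 FPKM in the controls, against 374 and 342 FPKM in the knockouts, and of the 6 that passed the filter Irf8 and Ccr2 fell. That sum followed the pattern through Ly6c2 and F13a1, while Cd68 stood at 16.7 to 21.6 FPKM in all libraries and Emr1 was high in control replicate 1 alone (52.6 FPKM, against 13.4 to 19.3 FPKM in the others). Ms4a7 and Cx3cr1 were below 1 FPKM in every library. Of 10 stromal genes, 4 passed the filter, Cxcl12 rose and Thy1 fell. The summed level was 39.3 to 57.4 FPKM in controls and 11.9 to 14.0 FPKM in knockouts. In the controls nearly all of that sum was Thy1, at 35.0 to 51.7 FPKM, against 4.82 and 3.78 FPKM in the knockouts.

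**Figure D3:**
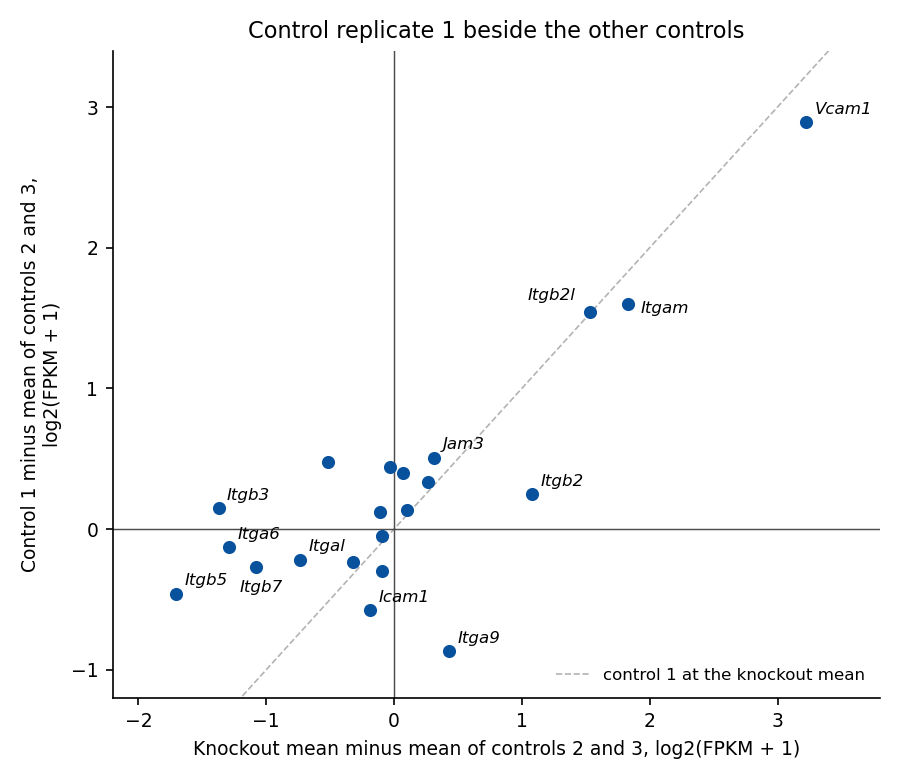
Each point is 1 of the 21 genes: the knockout mean (x axis) and control replicate 1 (y axis), each minus the mean of control replicates 2 and 3 on the log2(FPKM + 1) scale. Vcam1, Itgam and Itgb2l lie near the dashed line, where control replicate 1 equals the knockout mean, while Itgb3, Itga6, Itgb5, Itgb7, Itgal and Itgb2 lie nearer to the horizontal line at 0, where control replicate 1 equals the other controls.

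Set against control replicates 2 and 3, control replicate 1 was past 2-fold on that scale in 3 of the 21 genes, which are Vcam1, Itgam and Itgb2l, all higher, and in 5.01% of all genes tested. The knockout mean was past 2-fold in 8 of the 21 and in 6.39% of all genes. Against control replicate 1 alone, the knockout mean was past 2-fold higher in 1 gene, Itga9, and lower in 3, Itgb3, Itgb5 and Itga6, beside 7.61% of all genes in either direction. For Itgb3 this log2 difference was -1.52 against control replicate 1 and -1.37 against the other controls, and for Itga6 -1.16 and -1.29. For Itgb5 it was -1.25 and -1.71.

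Itgb3, the CD61 chain of the fibrinogen receptor on megakaryocytes and of the vitronectin receptor, had the smallest adjusted p of the 21. It stood at 21.2, 19.4 and 18.7 FPKM in the controls, against 6.79 and 6.66 FPKM in the knockouts. The groups were well apart, with means of 19.7 ± 1.30 FPKM (SD, n = 3) and 6.72 ± 0.0869 FPKM (SD, n = 2), 2.94-fold lower in the knockouts. The log2 change was -1.42 with an SE of 0.09 (limma adjusted p = 0.00522). It kept its call without any 1 of the controls and lost it without knockout replicate 1 (adjusted p = 0.0935) and without knockout replicate 2 (adjusted p = 0.115).

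The partners of Itgb3 differed from it and from each other. Itga2b, the CD41 chain that pairs with Itgb3 alone, stood at 46.3, 37.6 and 29.1 FPKM in the controls, against 25.2 and 20.7 FPKM in the knockouts. Both knockouts were below every control, but the controls spread widely, and Itga2b was not called (log2 change -0.67, SE 0.21, limma adjusted p = 0.110). Itgav, the other partner, stood at 10.5, 7.62 and 7.80 FPKM in the controls, against 8.34 and 7.92 FPKM in the knockouts, and the groups overlapped (adjusted p = 0.810). Its log2 change was -0.07 as tested, 0.02 after quantile normalization and 0.07 without control replicate 1.

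Itgb5, which pairs with Itgav in a vitronectin receptor, had the largest change among the 6 genes called. It stood at 3.86, 6.24 and 5.16 FPKM in the controls, against 0.911 and 1.19 FPKM in the knockouts. The lowest control was above both knockouts, and the mean fell 4.84-fold, from 5.09 ± 1.19 FPKM (SD, n = 3) to 1.05 ± 0.198 FPKM (SD, n = 2). The log2 change was -1.55 with an SE of 0.20 (limma adjusted p = 0.0196). Leaving out libraries gave adjusted p-values of 0.00671 without control replicate 1, 0.0646 and 0.0743 without control replicates 2 and 3, and 0.193 and 0.181 without knockout replicates 1 and 2. With no filter on low values it was 0.0572.

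None of the few megakaryocyte markers that could be tested was called. Of 12 such genes, 3 passed the filter (Pf4, Gp9 and Gp1ba, with limma adjusted p-values of 0.308 or more). The summed level of the 12 was 12.3 to 25.2 FPKM in the controls, against 14.0 to 18.5 FPKM in the knockouts. Its largest part was Pf4, which varied widely among the controls (19.2, 10.2 and 6.54 FPKM, against 11.4 and 8.56 FPKM in the knockouts). Gp6 was listed at 0 and Ppbp, Tubb1, Treml1, Clec1b, Gp1bb and Vwf stayed below 1 FPKM in every library. The part of such cells in the levels of Itgb3 and Itga2b was not tested.

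Itga6, the laminin-binding CD49f chain found on many stem and progenitor cells, stood at 16.3, 18.7 and 17.2 FPKM in the controls, against 6.66 and 6.83 FPKM in the knockouts. The groups were far apart and the replicates close, with means of 17.4 ± 1.18 FPKM (SD, n = 3) and 6.74 ± 0.124 FPKM (SD, n = 2), 2.58-fold lower in the knockouts. Its log2 change was -1.25 with an SE of 0.09 (limma adjusted p = 0.00725), and the call held without any 1 control but not without knockout replicate 1 (adjusted p = 0.118) or 2 (adjusted p = 0.125). The other laminin-binding chains, Itga3 and Itga7, reached at most 0.0340 and 0.104 FPKM, and Itgb4, which pairs with Itga6 in epithelia, 0.235 FPKM. The partner of Itga6 detected at a high level was Itgb1. Of 10 progenitor markers, 9 passed the filter and 5 fell (Cd34, Cd27, Cd48, Hlf and Hoxa9), beside 5.97% of all genes. Kit, Meis1, Procr and Ly6a were not called, and Ly6a was higher in both knockouts than in every control. The 10 summed to 885 to 1077 FPKM in the controls, against 376 to 394 FPKM in the knockouts, mostly through Cd34. Their part in the fall of Itga6 was not tested.

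Itgb7, the beta chain of the gut-homing receptor with Itga4, stood at 7.08, 10.7 and 7.08 FPKM in the controls, against 3.39 and 3.84 FPKM in the knockouts. No control reached down to the knockouts, and the mean fell 2.30-fold, from 8.30 ± 2.11 FPKM (SD, n = 3) to 3.62 ± 0.312 FPKM (SD, n = 2). The log2 change was -0.99 with an SE of 0.20. Its limma adjusted p of 0.0460 was the closest of the 6 to the threshold. It was 0.0308 without control replicate 1, 0.0655 and 0.0939 without control replicates 2 and 3, 0.296 and 0.272 without knockout replicates 1 and 2, 0.0565 with a pseudocount of 5 and 0.0650 after quantile normalization. With a mean of at least 5 FPKM it was 0.0506, and with no filter 0.106. Of 14 lymphoid markers, 2 passed the filter (Lck and Nkg7) and Nkg7 fell, and the summed level was 130 to 178 FPKM in the controls, against 77.8 to 86.3 FPKM in the knockouts, nearly all from Nkg7. Cd3g, Cd8a, Cd8b1, Pax5 and Ncr1 were at 0 in every library.

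Itga4, the CD49d chain of the Vcam1 receptor and the alpha partner of Itgb7, stood at 29.5, 23.9 and 22.4 FPKM in the controls, against 27.0 and 29.0 FPKM in the knockouts. The groups overlapped, and Itga4 was not called (log2 change 0.15, limma adjusted p = 0.501). The ratio of Itga4 to Itgb7 was 4.17, 2.23 and 3.17 in the controls and 7.97 and 7.56 in the knockouts. Itga4 shares 8.04% of its exon bases with Cerkl on the opposite strand, which reached at most 0.988 FPKM in any library. Itga9, which resembles Itga4, stood at 0.128, 1.19 and 0.928 FPKM in the controls, against 1.73 and 1.82 FPKM in the knockouts. Itga9 was higher in both knockouts than in every control, with control replicate 1 lowest, and was not called (adjusted p = 0.206).

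The chains of the fibronectin receptor differed little between groups. Itgb1, with the highest level of the 38 genes, stood at 103.7, 104.8 and 109.6 FPKM in the controls, against 98.5 and 101.9 FPKM in the knockouts. Both knockouts were just below the lowest control, and the log2 change of -0.08 had an SE of 0.07 (limma adjusted p = 0.497). Itga5, the alpha chain of that receptor, stood at 13.2, 12.3 and 11.5 FPKM in the controls, against 12.6 and 13 FPKM in the knockouts, within the same range (log2 change 0.05, SE 0.09, adjusted p = 0.724).

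**Figure D4:**
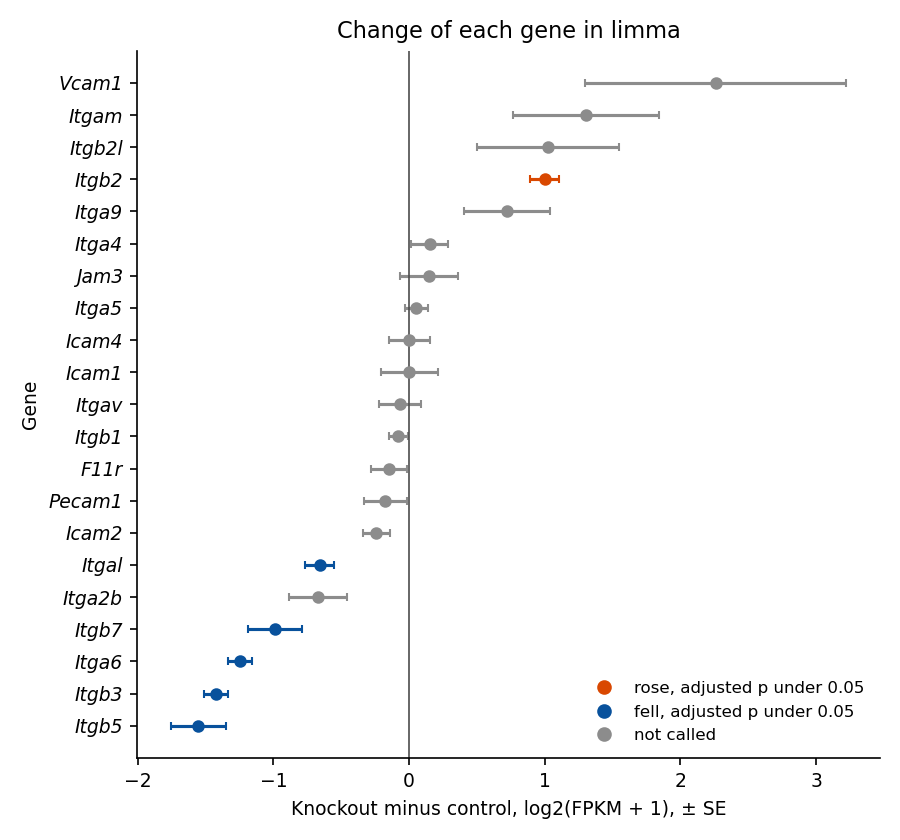
Log2 change (mean log2(FPKM + 1) of knockouts less that of controls) of the 21 genes tested, with bars of 1 standard error from limma, ordered by size. Itgb5, Itgb3, Itga6, Itgb7 and Itgal fell and Itgb2 rose, and Vcam1, Itgam and Itgb2l have wider bars than Itgb2.

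The Icam genes, which encode ligands of the Itgb2 integrins, were expressed in every library and not called. Icam2, found on endothelium and blood cells, stood at 39.8, 47.7 and 46.2 FPKM in the controls, against 37.6 and 37.2 FPKM in the knockouts. Both knockouts were below every control, and the adjusted p in limma was 0.186 with all libraries and 0.0188 without control replicate 1 (log2 change -0.24 and -0.32). Icam1, the ligand induced in inflammation, stood at 9.41, 13.6 and 15.4 FPKM in the controls, against 13.3 and 12.0 FPKM in the knockouts, with overlapping groups and a log2 change of 0.0024 (adjusted p = 0.995). Its sign was negative with a pseudocount of 5, without control replicate 1 and without knockout replicate 1. Icam4, a blood group molecule of red cells, stood between 1.75 and 2.44 FPKM in all libraries (adjusted p = 0.993). All of its exon bases, and 11.72% of those of Icam1, overlap an annotated gene on the opposite strand, and the use of strand in the counting is not given in the sources used here.

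Pecam1, the CD31 molecule of platelets, leukocytes and endothelium, stood at 54.8, 39.7 and 40.6 FPKM in the controls, against 38.9 and 39.8 FPKM in the knockouts. Control replicate 1 was the highest and the other 4 libraries were close together (limma adjusted p = 0.511). The junction molecules were low. F11r (JAM-A) stood between 2.87 and 3.89 FPKM and Jam3 between 0.727 and 1.48 FPKM over the 5 libraries, and neither was called (adjusted p = 0.498 and 0.694). Exons of Jam3 overlap a gene on the opposite strand by 36.22% of their bases. Of 10 endothelial markers, 3 passed the filter (Flt1, Eng and Egfl7) and Egfl7 fell. The summed level of the 10 was 66.7 to 84.6 FPKM in the controls, against 42.2 to 46.0 FPKM in the knockouts, Emcn was listed at 0, and Cdh5, Kdr, Tek, Tie1, Cldn5 and Vwf stayed below 1 FPKM in every library.

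The 17 genes below the filter were 13 integrin chains, Selp and Sele, Esam and Jam2. Itgb8 was listed at 0 in all libraries, and the others reached at most 0.7996 FPKM (Jam2). The collagen-binding chains Itga1, Itga2, Itga10 and Itga11 reached at most 0.334 FPKM, the selectins 0.295 (Selp) and 0.0839 FPKM (Sele), and Esam 0.239 FPKM. Itgb6, an epithelial chain, reached 0.0199 FPKM. Jam3 lay just inside the filter (1.48, 0.727 and 0.759 FPKM in controls, 1.28 and 1.06 FPKM in knockouts). Just outside it were Jam2, at 0.7996, 0.719 and 0.657 FPKM in the controls, against 0.206 and 0.128 FPKM in the knockouts, and the RGD-binding chain Itga8, at 0.579, 0.576 and 0.645 FPKM in the controls, against 0.133 and 0.120 FPKM in the knockouts.

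With every gene above 0 tested, 37 of the 38 adhesion genes entered the fit, and 1 rose and 4 fell in limma, against 1.05% and 1.15% of all 22571 genes. Itga8 (log2 change -0.51, adjusted p = 0.0286) and Jam2 (log2 change -0.56, adjusted p = 0.0414) were then among the falls with Itga6 and Itgb3, and Itgal, Itgb5 and Itgb7 were not called. Itga1 had the library pattern of Vcam1 at a low level, with 0.170, 0.0199 and 0.0218 FPKM in the controls, against 0.281 and 0.302 FPKM in the knockouts, and was not called (adjusted p = 0.146).

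Other genes of integrin and selectin adhesion were taken from 6 lists, of which 100 genes were tested. Of these, 9 rose and 9 fell in limma, beside 3.82% and 5.97% of all genes. Without control replicate 1, 27 rose and 18 fell, where 11.9% and 18.0% of all genes did, so that the falls stood at the share of all genes. Without control replicate 2, 1 rose and 1 fell (0.382% and 0.560% of all genes), and without control replicate 3, 2 rose and 2 fell (0.594% and 1.14%). The fits with 1 knockout library called 0 of the 100 in limma (22 and 19 at an unadjusted p under 0.05), as they called nearly no gene at all.

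Genes that regulate integrin activation or link integrins to actin were the longest of these lists, which also holds inhibitors of activation such as Rasa3. Of 28 tested, 6 rose and 3 fell, beside 3.82% and 5.97% of all genes, with a median log2 change of 0.31. Vcl (vinculin), which ties talin to actin, rose from 25.03 ± 1.01 FPKM (SD, n = 3) to 50.5 ± 2.78 FPKM (SD, n = 2), with a limma adjusted p of 0.00826. It shares 25.52% of its exon bases with Ap3m1 on the opposite strand, which reached 19.8 FPKM, so part of its level could be reads of that gene. Actn1 (alpha-actinin) rose from 13.7 ± 2.72 to 36.0 ± 1.81 FPKM (adjusted p = 0.0185), and Rasgrp2, the exchange factor that switches on Rap1 upstream of integrin activation, from 77.7 ± 2.76 to 122 ± 6.43 FPKM (adjusted p = 0.0168). Tns1 (tensin), which binds beta chain tails, fell 7.12-fold, from 12.6 ± 2.46 to 1.77 ± 0.127 FPKM (adjusted p = 0.00773). A further row of that name fell 7.53-fold, from 5.73 ± 1.30 to 0.761 ± 0.0307 FPKM (adjusted p = 0.0132). A fall was also called for Lims1 (PINCH), a partner of integrin-linked kinase, from 58.3 ± 4.37 to 36.0 ± 0.613 FPKM (adjusted p = 0.0195). The other calls, named after their values were seen, were rises of Flna, Zyx and Rassf5 and a fall of Rasa3. Tln1 (talin), which activates integrins with kindlin, stood at 69.1, 75.0 and 73.0 FPKM in the controls, against 95.2 and 90.4 FPKM in the knockouts and just missed the threshold (adjusted p = 0.0506). The kindlin gene Fermt3 stood at 95.3 to 113 FPKM in the controls, against 140 and 134 FPKM in the knockouts (adjusted p = 0.0883). These 2 were also picked after their values were seen.

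**Figure D5:**
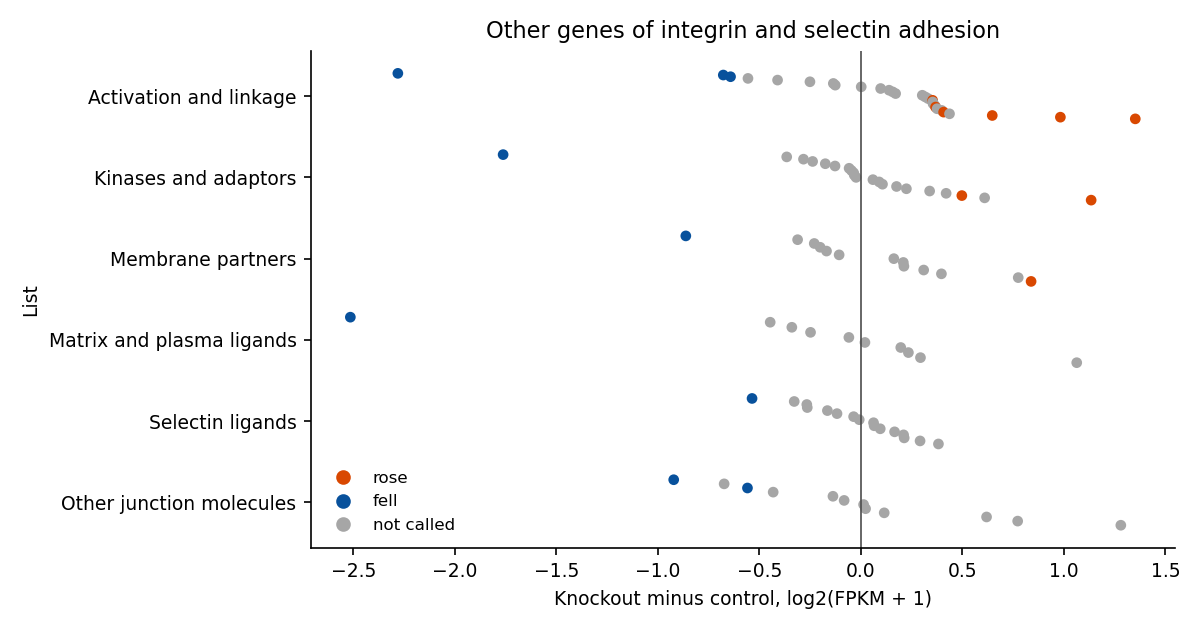
Log2 change (mean log2(FPKM + 1) of knockouts less that of controls) of the 100 tested genes of 6 lists, 1 point per gene, coloured by the limma call at an adjusted p under 0.05. The activation and linkage list holds 9 of the 18 calls, and Tns1, Fyn and Col4a1 are the lowest points of their lists.

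In the other 5 lists 3 genes rose and 6 fell of 72 tested, beside 3.82% and 5.97% of all genes. Of 21 kinases and adaptors downstream of integrins, Lcp2 (SLP-76) rose from 14.4 ± 2.21 FPKM (SD, n = 3) to 32.6 ± 2.41 FPKM (SD, n = 2), Vav1 rose from 60.5 ± 1.13 to 85.8 ± 3.98 FPKM, and the Src family kinase gene Fyn fell 3.87-fold, from 21.2 ± 3.99 to 5.47 ± 0.428 FPKM. Their limma adjusted p was 0.0189, 0.0230 and 0.0131. Of 13 membrane partners, the tetraspanin gene Tspan32 rose from 27.2 ± 2.82 to 49.3 ± 0.368 FPKM (adjusted p = 0.0189) and Cd9 fell from 41.9 ± 1.57 to 22.6 ± 1.15 FPKM (adjusted p = 0.0106). Of 10 matrix and plasma ligands, the basement membrane collagen gene Col4a1 fell, from 41.6, 17.1 and 15.0 FPKM in the controls to 3.98 and 2.27 FPKM in the knockouts (adjusted p = 0.0417). Of 16 selectin ligands and their glycosyltransferases, Glg1, which encodes an E-selectin ligand, fell from 45.2 ± 2.71 to 30.8 ± 0.0630 FPKM (adjusted p = 0.0249). Of 12 further junction molecules, Tjp1 (ZO-1) fell from 2.84 ± 0.471 to 1.02 ± 0.120 FPKM (adjusted p = 0.0310) and Cd99l2 from 9.65 ± 0.749 to 6.22 ± 0.00320 FPKM (adjusted p = 0.0336). Exons of Actn1, Rasgrp2, Lcp2, Tspan32, Cd9, Cd99l2 and Col4a1 overlap a gene on the opposite strand by at most 10.67% of their bases.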

How the data were processed

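RNA sequencing values of 5 libraries (3 control, 2 knockout) were used. The deposited values are FPKM per Ensembl gene, 1 file per library. Per the submitters' processing notes, CASAVA 1.8.2, GSNAP, SAMtools and Cuffdiff were used with build mm9. How the authors handled annotation, multiply matched reads and strand is not given in the sources used here; the kit was a stranded mRNA kit per the labels' protocols. In 16 genes at least 1 library held 999999999, and these genes were left out, none of them an adhesion gene of the group.

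The filter (1 FPKM or more, in 2 or more of 5 libraries) kept 11780 genes. The test was limma (3.58.1, R 4.3.3) with its trend option, applied to log2(FPKM + 1) over all 5 libraries and with Benjamini-Hochberg adjustment over all genes tested. Calls required an adjusted p below 0.05. The fit was tested on simulated data. Genes were described in full if called, if both knockouts lay outside the control range, or if any library reached 10 FPKM, and up to 5 called genes of each further list were named. Where a symbol has several gene IDs (Tns1), the row with the smallest p was taken. The members and lists were chosen with earlier results of these data known. Exon overlaps come from GENCODE M21 (GRCm38) and promoters from RefSeq (GRCm38.p6), and no coordinates of the files' build were used. Alternatives covered the pseudocount, filter, scaling, intensity trend, threshold, replicate block and each library left out. The files hold no counts, so no interval from counting could be given.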

Additional observations from a re-analysis of the deposited data

How the results depend on the processing

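The number of adhesion genes that rose was 1 as tested and 1 under every alternative that used all libraries without a replicate block. It was 0 with the replicate number as a block, and between 0 and 4 with 1 library left out. The number that fell was 5 as tested, 4 with a pseudocount of 5, after quantile normalization and with no filter, 3 with a mean of at least 5 FPKM (15 of the genes tested), 0 with the replicate block, and between 0 and 6 with 1 library left out. Under the replicate block 7 of the 21 had an unadjusted p under 0.05 in limma, and over all genes 12 rose and 43 fell. The labels do not say that a shared number marks a shared animal or day, and deviations from the group means of same-numbered libraries correlated at 0.037 and 0.012 across genes. The deviations of the 2 knockouts are exact opposites, so these correlations are not independent and cannot settle whether numbers mark pairs. With a block and 5 libraries, few degrees of freedom are left. The median log2 change of the genes tested moved by less than the spread between control libraries (0.089) under each alternative run, though its sign changed after quantile normalization (0.023). Of 219 values of single genes under alternatives, 179 kept their direction and call, 32 lost and 3 gained a call, and 5 changed sign: Itgav was 0.023 after quantile normalization and 0.067 without control replicate 1, and Icam1 was -0.0027 with a pseudocount of 5, -0.19 without control replicate 1 and -0.067 without knockout replicate 1. With 1 library left out, Itgav lay between -0.1396 and 0.067 and Icam1 between -0.19 and 0.1406. The cause was not tested.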
